A study of Mus musculus with 15 samples.

Results

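Inhib_5 is one of the 12 clusters into which the authors divided the inhibitory neurons of the mouse prefrontal cortex (PFC). Its members were taken as the cells given the name Inhib_5 in the deposited table of cells. They numbered 92 of 35360 retained cells, and 92 of the 2153 cells in the 12 inhibitory clusters. Of these cells, 66 came from adult mice (P60) and 26 from young mice at 3 weeks of age (P21). The cluster carries no name of a cell type in the deposited table. Reln, which encodes the secreted glycoprotein reelin, was taken as its marker, although Inhib_2, Inhib_10 and Inhib_7 had Reln as well and 12 other genes had a higher ratio to the next cluster at P60.

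Single cells of the PFC of male C57BL/6N mice were sequenced in 15 libraries, each made from the pooled tissue of 2 mice. The adult mice, 8 to 10 weeks old by the labels, gave 12 libraries, 2 for each of 6 groups. They had self-administered saline or cocaine through an intravenous catheter. In the paper catheters were implanted at P60, before 15 d of maintenance and up to 15 d of withdrawal, so mice may have been older at dissection. Libraries 1 and 4 (cocaine) and 2 and 3 (saline) were from the maintenance phase, libraries 6 and 8 (cocaine) and 5 and 7 (saline) from 48 h of withdrawal, and libraries 9 and 10 (cocaine) and 11 and 12 (saline) from 15 d of withdrawal. The 3 libraries of P21 mice had no self-administration. The methods give 4 mice for P21, so the 3 libraries of pooled pairs cannot all be of separate mice. P-values that involve P21 therefore do not measure the spread between mice. They rest on libraries for UMIs per cell, and for single genes on units summed from libraries, described below. One field of the labels names the nucleus accumbens, whereas titles and methods name the PFC.

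Inhibitory neurons of the cortex release GABA and mostly arise in the medial or the caudal ganglionic eminence of the embryo (MGE and CGE). The MGE gives neurons with parvalbumin (Pvalb) or somatostatin (Sst), and the CGE gives neurons with Vip, with Cck, or with reelin but no somatostatin. Reelin guides migrating neurons during development and acts at synapses in the adult cortex, where it binds the receptors Vldlr and Lrp8 and leads to phosphorylation of the adaptor Dab1 by kinases such as Fyn. Many of the adult reelin cells without somatostatin are neurogliaform cells, known by Ndnf, Lamp5 and Npy, which act on nearby cells with slow inhibition.

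The GABA-synthesising enzymes Gad1 and Gad2 were each detected in 65 of the 66 P60 cells, and Reln in 56 (84.8%, 95% exact binomial interval 73.9 to 92.5). Intervals here cover counting error only. Reln was detected in 29.6% of 1125 other inhibitory neurons, 3.04% of 14443 excitatory neurons and 0.365% of 3564 endothelial cells of the P60 libraries. Without mitochondrial and ribosomal protein genes, their median depths were 7224, 12465 and 3872.5 UMIs per cell against 6586.5 in Inhib_5. With each cell thinned to 2000 UMIs, the shares were 56.1% in Inhib_5 and 15.4% in the other inhibitory neurons. Cxcl14, a chemokine gene, was detected in 57 of 66 cells, and Nr2f2, a transcription factor of the CGE lineage, in 60. The shares were 24.8% and 39.9% in the other inhibitory neurons, and Nr2f2 was detected in 34.3% of endothelial cells. Sst, Pvalb and Lhx6, the last a transcription factor of the MGE lineage, were detected in 0 of 66 cells, which allows up to 4.55% of cells with a UMI (3 counts of 66) and does not limit the share of cells that express the genes.

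The P21 cells showed these markers too. Gad1 and Gad2 were each found in 25 of 26 cells, Reln in 21, Cxcl14 in 23, Nr2f2 in 21 and Sst in 1. The authors classed 90 of the 92 cells as inhibitory and 2, 1 of each age, as excitatory; tests were repeated without these 2 cells. Over the 66 P60 cells, the 8 excitatory markers summed to 259 CPM, the fifth highest of the 12 clusters, which lay between 50.8 and 690 CPM elsewhere. Here CPM are UMIs scaled to 1000000 per cluster, library or unit, without mitochondrial and ribosomal protein genes. The endothelial and vascular markers stood at 38 UMIs, of which 31 were in the 3 cells of library 6. Astrocyte, oligodendrocyte, precursor and microglia lists lay between 2.18 and 74.1 CPM. Over all genes, Inhib_5 cells held 3283 to 21522 UMIs at P60 (median 7382) and 2060 to 12093 at P21 (median 4958), and the libraries held 8375172 to 42892922 UMIs. Barcodes of 4 Inhib_5 cells occurred in another library as well, as did those of 1505 retained cells, and none was shared between Inhib_5 cells.

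Reln (ENSMUSG00000042453, NCBIM37 chr5:21390272-21850523, minus strand) had its highest level of the 12 clusters in Inhib_5 at both ages. The level was 525 CPM at P60, from 241 UMIs, followed by 345 CPM in Inhib_2, 277 in Inhib_10 and 139 in Inhib_7. The other 8 clusters lay between 3.05 and 92.0 CPM. In the 3 P60 libraries with at least 10 Inhib_5 cells it was 573, 323 and 531 CPM (475 ± 134, SD, n = 3), and over all 12 it ranged from 245 CPM in library 2, with 1 cell, to 1074 CPM in library 1, with 2 cells. Libraries 2 and 10 lay below the pooled level of Inhib_2. At P21 the level was 790 CPM, ahead of Inhib_10 with 481 and Inhib_2 with 324, and the 3 libraries stood at 799, 1025 and 376 CPM. The authors made the clusters from the P60 cells and named P21 cells by correlation with them, so a higher level in Inhib_5 than in other clusters describes the cluster and was not tested.

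**Figure D1:**
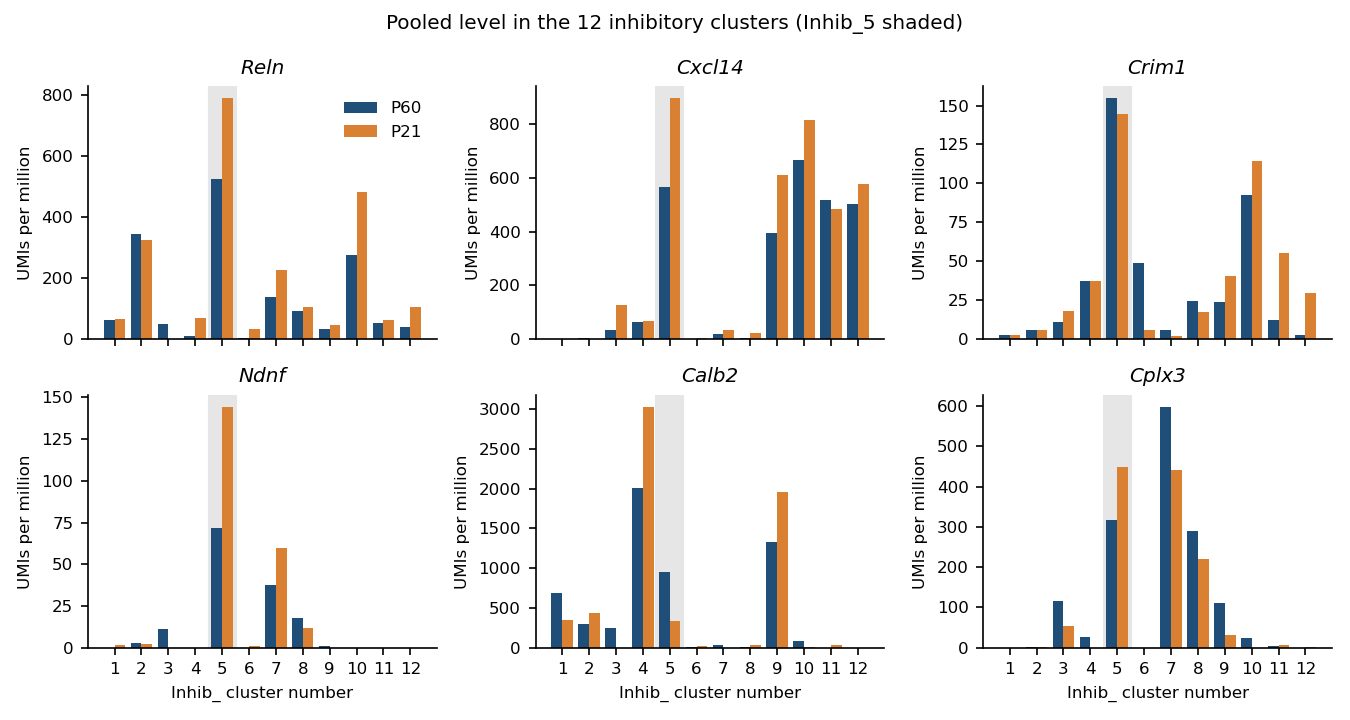
Pooled level in CPM (y axis of each panel) of Reln, Cxcl14, Crim1, Ndnf, Calb2 and Cplx3 in the 12 inhibitory clusters (x axis), with 1 bar for P60 cells and 1 for P21 cells. Reln, Crim1 and Ndnf are highest in Inhib_5 at both ages, Cxcl14 is shared with Inhib_9 to Inhib_12, and Cplx3 with Inhib_7 and Inhib_8.

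Cxcl14 (chr13:56390008-56397912, minus strand), Crim1 (chr17:78599588-78775932, plus strand) and Ndnf (listed under an older symbol, chr6:65621584-65656924, plus strand) were each highest or second highest in Inhib_5 at P60. Cxcl14 was at 567 CPM, second to 666 CPM in Inhib_10, and 3 further clusters exceeded 390 CPM. Crim1, a transmembrane protein that binds bone morphogenetic proteins, was at 155 CPM against 92.2 in Inhib_10, the next. Ndnf, a secreted factor, was at 71.9 CPM, followed by Inhib_7 with 37.6 and Inhib_8 with 17.5, and it was under 12 CPM in the other 9. Inhib_7 and Inhib_8 had higher levels of Lamp5 and Npy. Lamp5 was at 196 CPM in Inhib_5 against 877 and 708 in these clusters, and Npy at 817 CPM against 29542 and 15958. Cplx3, a complexin of the vesicle fusion machinery, was at 318 CPM in Inhib_5, 598 in Inhib_7 and 289 in Inhib_8. Neither cluster shared the Cxcl14 signal, with 19.5 CPM in Inhib_7 and 4.38 in Inhib_8.

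The 7 genes of the list of CGE transcription factors, all detected, summed to 1174 CPM, the third highest, with Nr2f1 at 235 CPM the highest of the 12 and Nr2f2 at 440 CPM second to Inhib_10. For the other 5 genes Inhib_5 was not among the 3 highest clusters. The 6 MGE factors summed to 166 CPM, the tenth, and the Sst and Pvalb lists to 105 and 161 CPM, both the tenth. Of the 15 genes in the list for reelin and neurogliaform cells, 3 were highest in Inhib_5 (Reln, Crim1, Ndnf) and for 9 Inhib_5 was among the 3 highest clusters. The 15 genes summed to 5872 CPM, which ranked 5 of the 12 clusters, with Inhib_7 highest at 35437 CPM. The Vip list (2763 CPM) and the Cck and Sncg list (2597 CPM) both ranked 6. Neuropeptides were low: the 14 genes summed to 3571 CPM, the eleventh of 12, where the median of the other clusters was 21233 CPM. At P21 this list was the lowest of all, at 3668 CPM.

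The 12 genes of the reelin pathway summed to 1235 CPM in P60 Inhib_5 and to 1663 CPM at P21, the highest of the 12 clusters at both ages, but these ranks rested on Reln. The 11 genes without Reln summed to 710 CPM at P60, which ranked 4 of 12 with Inhib_11 highest at 742, and to 873 CPM at P21, which ranked 5 with Inhib_10 highest at 1037. Among the receptors, Vldlr was at 80.6 CPM and Lrp8 at 45.8 CPM, which ranked 8 and 4 of the 12 clusters. The adaptor Dab1 was at 179 CPM, the highest of the 12 at P60 next to 165 in Inhib_12, and it ranked 3 at P21. The kinase Fyn was at 105 CPM, behind Inhib_10 at 133. Pafah1b1 (Lis1), which acts on dynein in migrating neurons, was at 201 CPM and ranked ninth. GABA synthesis and transport genes summed to 5293 CPM, which ranked 3 of the 12 clusters, with Inhib_7 highest at 7125 CPM. They were led by Gad2 at 1806 CPM and Gad1 at 1780 CPM. Among GABAergic identity genes Erbb4, the receptor of neuregulins, was at 229 CPM, second to Inhib_6. The cannabinoid receptor gene Cnr1 was at 1299 CPM. It was detected in 62 of 66 cells, against 63.6% of other inhibitory and 60.4% of excitatory P60 neurons. Sncg was at 17.4 CPM and the vesicular glutamate transporter Slc17a8 at 0, whereas Inhib_10 to Inhib_12, the clusters with most Sncg, had 2769 to 5496 CPM of Cnr1.

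None of the genes compared separated Inhib_5 sharply from every other cluster. Of 2916 genes with at least 30 UMIs in Inhib_5 cells in at least 4 libraries, a filter that favours genes high in Inhib_5, 337 (11.6%) had their highest level in Inhib_5, 15 by more than 1.5-fold over the next cluster and 1 by more than 2-fold. That gene was Vrk1, a nuclear kinase (chr12:107248473-107315620, plus strand), at 85 CPM against 34.7 in Inhib_7, from 39 UMIs. It was followed in ratio by Ndnf (1.91), Deptor (1.91), an inhibitor of mTOR, Klhl13 (1.69) and Crim1 (1.68). Among better expressed genes, Rab3c, a GTPase of synaptic vesicles, reached 1357 CPM against 876 in Inhib_7, and Parm1 reached 595 CPM against 376 in Inhib_4. Of the 20 genes with the highest ratios at P60, 10 were highest in Inhib_5 at P21 too and 15 ranked 1 to 3. Parm1 stood out there at 729 CPM against 240 in Inhib_7, whereas Vrk1, with 5 UMIs at P21, was slightly below Inhib_7. The P21 cells were named by correlation with the P60 clusters, so ranks at P21 are no separate support for these genes.

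Across the 12 P60 clusters, the genes most like Reln of 2915 compared were Fxyd7 (Pearson's r = 0.954), a regulator of the sodium pump, Atp2c1 (0.865), Ddx6 (0.853), Garnl3 (0.844) and Sulf2 (0.837). These coefficients describe 12 points that share libraries. The genes compared had at least 30 UMIs in P60 Inhib_5 cells, a filter that favours genes high where Reln is highest. Picked as the highest of 2915 values over 12 points, the coefficients were not tested and may have arisen by chance. Over 8219 genes, the profile of Inhib_5 was most like that of Inhib_9 (r = 0.944), a cluster with 17720 CPM of Vip, and least like that of Inhib_6 (0.870), which had the highest summed Pvalb list. At P21 it was most like Inhib_7 (0.882).

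Single cells of Inhib_5 differed in their peptides and calcium-binding proteins. At P60, 19 of 66 cells held at least 5 UMIs of Calb2 (calretinin), 20 of Cck, 15 of Npy, 14 of Penk, the precursor of enkephalins, and 7 of Vip. Calb2 and Penk went together, since 13 of the 14 Penk cells were also Calb2 cells. Npy and Lamp5 went together as well, since 6 of the 7 Lamp5 cells were Npy cells. Only 1 cell had at least 5 UMIs of both Calb2 and Npy, 1 of both Calb2 and Cck, 5 of both Npy and Cck, and none of Penk with either Npy or Cck. None of Calb2, Npy, Cck and Vip reached this level in 17 cells, and 11 cells had more than 1 of them. Among the 26 P21 cells, 5 were Calb2 cells, 7 Cck cells, 6 Npy cells and none Vip cells, and no cell had more than 1 of the 4 genes. The P21 cells were shallower, with a median of 4383 UMIs against 6586.5 at P60 without mitochondrial and ribosomal protein genes. The cutoff of 5 UMIs was not adjusted for depth, so these counts do not compare the ages.

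**Figure D2:**
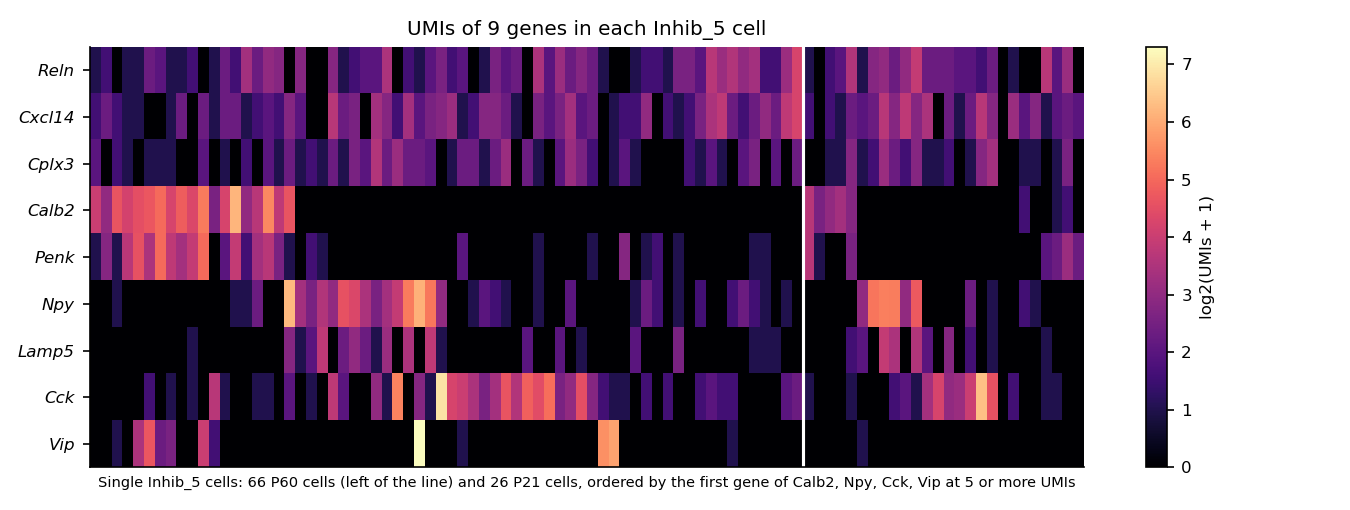
Heat map of the 92 Inhib_5 cells (1 column each, P60 and P21 apart) for 9 genes (rows), coloured by log2(UMIs + 1). Calb2 with Penk and Npy with Lamp5 fall in mostly separate cells, whereas Reln and Cxcl14 are found in cells of both kinds.

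Reln was present in P60 cells with Calb2, with Npy, with Cck and with none of these. Pooled over 17 cells with Calb2 but neither Npy nor Cck it was at 492 CPM, over 9 cells with Npy alone at 431 CPM, over 14 with Cck alone at 515 CPM and over 17 with neither at 839 CPM. Of the 7 Vip cells, 0 held at least 5 UMIs of Reln, against 20 of all 66 P60 cells. Cells chosen for a gene differ in it by choice, so only other genes are given. Ndnf was at 0 UMIs in the Calb2 cells, 192 CPM in the Npy cells, 58.3 CPM in the Cck cells and 131 CPM in those with neither. The last 3 levels came from 12, 6 and 15 UMIs. Lamp5 was at 1007 CPM (63 UMIs) in the Npy cells and at 10.2, 68.1 and 96.1 CPM (1, 7 and 11 UMIs) in the others. Penk was at 2029 CPM in the Calb2 cells and at 47.9 to 105 CPM, from 3 to 12 UMIs, elsewhere. Nr2f1 ran the other way to Lamp5, with 359 CPM in the Calb2 cells and 63.9 CPM, from 4 UMIs, in the Npy cells. Id2, an inhibitor of bHLH factors, was at 277 CPM in the Calb2 cells and at 1171 to 1322 CPM in the rest. Gad1 varied less, from 1599 to 2062 CPM.

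These kinds of cells were unevenly spread over libraries, and few cells stood behind several levels. Of 14 cells in library 11, 6 were Calb2 cells and 2 Cck cells, whereas libraries 9 and 10 held 6 Cck cells each among 10 and 12 cells, and 3 Calb2 cells each. In library 7, 4 of 5 cells were Npy cells. The pooled Vip level was 713 CPM at P60, with 157 UMIs in library 7 and 106 in library 12, and was 4178 CPM in library 7 and 4937 CPM in library 12 but 0 to 390 CPM in the other 10.

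Inhib_5 made up 5.54% of the inhibitory neurons at P60 (66 of 1191, 95% exact binomial interval 4.31 to 7.0) and 2.70% at P21 (26 of 962, 1.77 to 3.94). Shares were 2.08% to 10.7% in the 12 P60 libraries and 5.17%, 2.33% and 1.08% in the 3 P21 libraries. The P21 cells were named by another procedure than the P60 cells and were shallower, so the shares are set side by side without a test. The methods also give a lower cutoff of genes per cell for P21 cells than for P60 neurons, while the paper's results name the same criteria. The part of this cutoff in the shares and in the UMIs per cell was not tested. Between cocaine and saline the share was tested: it was 4.01 points lower with cocaine in maintenance, 0.895 points lower at 48 h and 1.61 points higher at 15 d. The mean difference was −1.10 points (exact permutation test within time points, two-sided, p = 0.611), so no difference was detectable with 1 to 14 Inhib_5 cells per library. The median UMIs per cell averaged 7831 ± 3118 (SD, n = 6) over saline P60 libraries and 4496 ± 1545 (SD, n = 3) over P21 libraries, a difference of 3335 (exact permutation test, two-sided, p = 0.0952, where the smallest possible p is 0.0119).

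**Figure D3:**
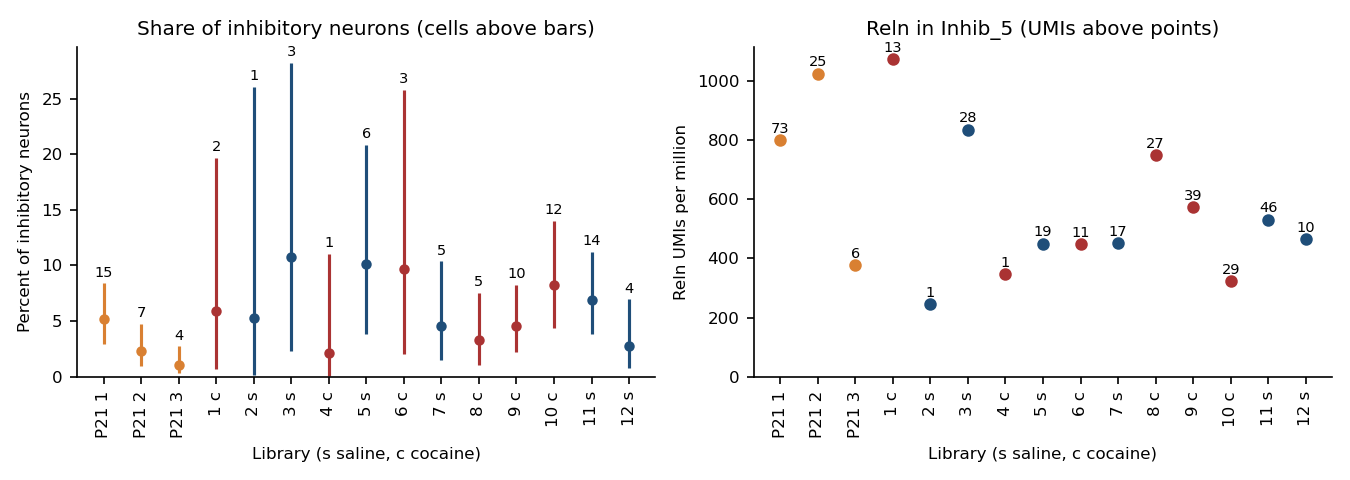
Left panel: Inhib_5 as a percentage of inhibitory neurons in each of the 15 libraries, with 95% exact binomial intervals and the number of Inhib_5 cells. Right panel: Reln level in CPM in the Inhib_5 cells of each library with its UMIs; the P60 levels run from 245 to 1074 CPM and the extremes belong to libraries with 1 or 2 cells.

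The study compared P21 with adult mice to follow the maturation of each cell type in adolescence. For Inhib_5, UMIs were summed by library, and libraries of a group with fewer than 10 cells were summed together, which left 2 P21 units (library 1 with 15 cells, libraries 2 and 3 with 11) and 2 saline P60 units (libraries 5 and 7 with 11, library 11 with 14). Libraries 2, 3 and 12 of saline P60 mice had too few cells and were left out. In a bulk sum of this kind, fewer cells with a transcript and less of it per cell cannot be told apart. The saline P60 mice had been trained, catheterised and given saline to self-administer, whereas the P21 mice had no self-administration. Age cannot be told apart from this, nor from the other procedure by which the P21 cells were named. Nor can it be told apart from the lower cutoff of genes per cell that the methods give for P21 cells. An age difference here means a difference between these groups.

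Of 1887 genes tested, 6 (0.318%) were called by edgeR at an adjusted p under 0.05 and a change above 1.5-fold, all of them lower at P60. None was called higher by edgeR or by DESeq2, with 63 genes higher and 109 lower at an unadjusted p under 0.05 in edgeR. In other settings edgeR called some genes higher, namely 6 without P21 library 2 or 3, 4 without library 5 or 7, and 1 each without P21 library 1, without library 11 and without the filter on low counts. Cox5a, a subunit of cytochrome c oxidase (chr9:57369039-57380231, plus strand), was at 1237 and 595 CPM in the P21 units and at 75.2 and 104 CPM in the P60 units, and fell by 3.41 on the log2 scale (SE 0.44, edgeR adjusted p = 0.00451). Cck, the precursor of cholecystokinin, was at 1248 and 1463 CPM at P21 and at 138 and 312 CPM at P60, and fell by 2.57 (SE 0.36, edgeR adjusted p = 0.00593). Both genes were lower in both P60 units than in either P21 unit. Cells with at least 5 UMIs of Cck were 3 of 15, 3 of 7 and 1 of 4 in P21 libraries 1, 2 and 3. They were 0 of 6, 1 of 5 and 2 of 14 in libraries 5, 7 and 11, and their part in the result was not tested. The Cck level of P21 library 1 came mostly from 1 of its 15 cells, with 81 of 114 UMIs, and without that cell it was 392 CPM, near the 312 CPM of library 11. With that cell left out, a setting added after the data were seen, Cck was not called (−1.93, edgeR adjusted p = 0.465), nor were Cyc1 and Clta (edgeR adjusted p = 0.0526 and 0.0515), while Cox5a (−3.38), Ndufab1 and Atxn7l3b were. The other calls were Ndufab1 (−2.34), the acyl carrier protein of complex I, Atxn7l3b (−2.34), Cyc1 (−2.15), cytochrome c1 of complex III, and Clta (−1.91), a clathrin light chain. Cyc1 and Clta were not called without P21 library 1 (−1.72 and −1.61) or without library 5 or 7 (−1.89 and −1.59), and DESeq2 called neither, nor Ndufab1. Units of the 2 ages did not overlap in 39.5% of all genes tested.

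These genes differed between libraries of the same age and in other cells of the same libraries. In Inhib_5 cells Cox5a was at 881 and 702 CPM in libraries 9 and 10, and at 512 CPM in library 12, which did not enter the test. In excitatory neurons it was at 1244, 516 and 436 CPM in the P21 libraries, at 708 and 631 CPM in libraries 9 and 10, at 309 CPM in library 12, and at 97.1 to 240 CPM in the other 9 P60 libraries. The P60 libraries 9, 10 and 12 lay nearer to P21 than the others did, in excitatory as in Inhib_5 cells. Cck followed a similar order in excitatory neurons, with 4633, 1639 and 1332 CPM at P21, 3731 and 3125 CPM in libraries 9 and 10, 1680 CPM in library 12 and 420 to 949 CPM in the other 9. With units from all P60 libraries, cocaine included, edgeR called 0 genes (175 at an unadjusted p under 0.05), and Cox5a was lower at P60 by −1.17 and Cck by −0.21 on the log2 scale, with adjusted p of 0.860 and 0.992.

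**Figure D4:**
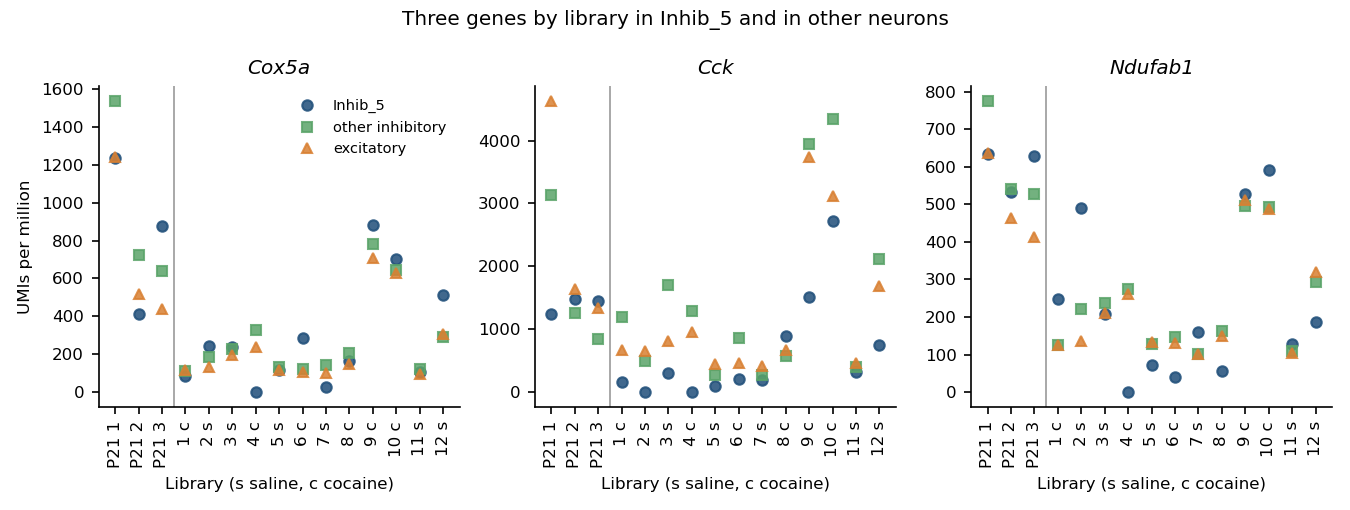
Level in CPM of Cox5a, Cck and Ndufab1 (panels) in each library (x axis), with separate points for Inhib_5 cells, the other inhibitory neurons and excitatory neurons. In the other inhibitory and excitatory neurons as in Inhib_5, Cox5a and Cck are higher in the P60 libraries 9 and 10 than in library 11, where Inhib_5 cells had 104 CPM of Cox5a.

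The lists gave no further call with age, where 0.318% of all genes tested were called. Among 13 tested genes of the reelin and neurogliaform list, 0 were called in either direction (median log2 change −0.30, against 0.00 over all genes tested). Reln was at 799 and 769 CPM in the P21 units and 451 and 531 CPM in the P60 units, a log2 difference of −0.69 (SE 0.29) that did not pass (edgeR adjusted p = 0.493, unadjusted p = 0.0342). Of the other reelin pathway genes only 3 reached the test, and none was called. The 16 tested growth cone and immature neuron genes had a median of −0.31 with 0 called, the 8 genes of GABA synthesis and transport −0.43 with 0 called, and the 14 synaptic vesicle genes 0.06 with 0 called. Of 6 neuropeptides tested, Cck was called, while the other 5 had positive estimates, none of which passed.

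Whether an age difference in Inhib_5 was of another size than that of the other inhibitory neurons of the same libraries was tested as an interaction. Of 8499 genes, 5 were called (0.0588%), 4 (0.0471%) with a lower and 1 (0.0118%) with a higher P60-minus-P21 difference in Inhib_5 than in the others. Cplx3 (chr9:57447826-57454088, minus strand) gave the lowest p. In Inhib_5 it was at 482 and 372 CPM at P21 and at 338 and 381 CPM at P60, whereas the other inhibitory neurons went from 80.2 and 19.8 CPM to 298 and 314 CPM. Its level in Inhib_5 overlapped between ages, and the difference of the 2 changes was −2.76 on the log2 scale (SE 0.38, edgeR adjusted p = 2.27e-09). Leaving out a library or changing the setting gave −3.73 to −2.33. Leaving out any library removed a whole unit and left 1 unit at that age, assumed to vary like the 2 of the other age. DESeq2 called Cplx3 (−2.96, DESeq2 adjusted p = 0.00843) and none of the other 4 genes.

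The other 4 genes had the same form or rested on few UMIs. Cryab, a small heat shock protein, was at 745 and 992 CPM in P21 and 777 and 554 CPM in P60 Inhib_5 cells, against 279 and 111 and then 449 and 591 CPM in the others (−1.69, edgeR adjusted p = 1.03e-04). Nfix, a transcription factor of the nuclear factor I family, was at 580 and 645 CPM, then 701 and 392 CPM in Inhib_5, against 185 and 117, then 347 and 441 CPM in the others (−1.42, edgeR adjusted p = 0.0244). Kit, a receptor tyrosine kinase, was at 230 and 174 CPM, then 125 and 57.7 CPM in Inhib_5, the last from 5 UMIs, and at 117 and 62.6, then 242 and 211 CPM in the others (−2.37, edgeR adjusted p = 0.0169). Inpp5f, a phosphoinositide phosphatase, went the other way (2.80, edgeR adjusted p = 0.0202) with 2 and 4 UMIs at P21 and 7 and 22 at P60 in Inhib_5. Without library 11 none of them was called (Cryab −1.22, Nfix −0.81, Kit −1.94, Inpp5f 1.92). Without P21 library 1 the calls of Kit (−2.54) and Inpp5f (2.01) were lost, without P21 library 2 or 3 those of Cryab (−1.04) and Nfix (−1.16), and without library 5 or 7 that of Kit (−2.90). Reln had a difference of changes of −0.10 (edgeR adjusted p = 1).

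**Figure D5:**
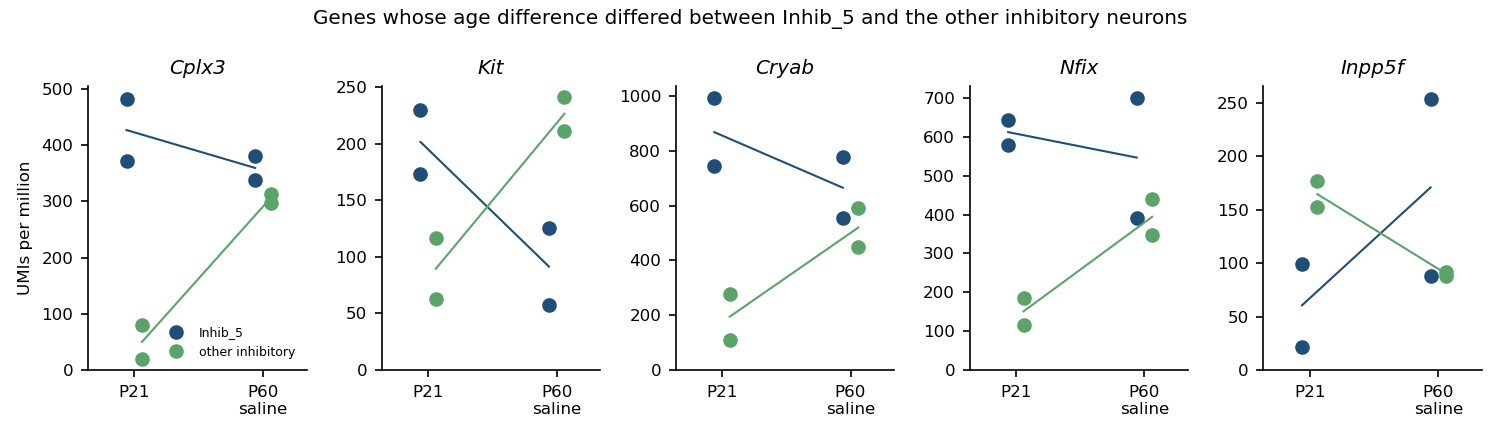
Levels in CPM (y axis) of Cplx3, Kit, Cryab, Nfix and Inpp5f in the 2 P21 and 2 saline P60 units (points) and their means (lines), for Inhib_5 and for the other inhibitory neurons. Cplx3, Cryab and Nfix have overlapping levels at the 2 ages in Inhib_5 and higher P60 levels in the other inhibitory neurons.

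The make-up of the other inhibitory neurons moved with age in the same units. Inhib_7, the cluster with most Cplx3 at P60, made up 14.5% and 5.45% of the other inhibitory cells in the P21 units and 42.0% and 42.6% in the P60 units. Inhib_2, with 0.959 CPM of Cplx3 at P60, made up 37.5% and 36.0%, then 12.7% and 6.32%. Within clusters, Cplx3 was at 441 CPM at P21 and 598 CPM at P60 in Inhib_7 and at 219 and 289 CPM in Inhib_8. Against Inhib_4, Inhib_9, Inhib_10 and Inhib_11 only, a comparison chosen after the data were seen, edgeR called 0 of 3728 genes (181 at an unadjusted p under 0.05) and Cplx3 gave −2.68 (edgeR adjusted p = 0.0723). Without Inhib_7, also chosen afterwards, 2 genes were called, Cplx3 among them (−2.73, edgeR adjusted p = 1.07e-04). Kit, Cryab, Nfix and Inpp5f were then not called.

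The study compared cocaine with saline to find cell types that respond to self-administration and withdrawal. For Inhib_5 only the 15 d time point had units of both treatments, namely libraries 9 and 10 for cocaine (10 and 12 cells) and library 11 for saline (14 cells). Library 12, with 4 cells, was left out, and so were maintenance and the cocaine libraries of 48 h. The pooled saline unit of 48 h was in the fit with a term of its own and added nothing to the estimate of the spread. That spread came from libraries 9 and 10 alone, and edgeR drew the value of each gene towards a trend over all genes. The lone saline unit of 15 d was assumed to vary like libraries 9 and 10. The SE and p given below therefore do not measure the spread of a single gene between libraries.

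Of 1827 genes tested, 31 (1.70%) were called by edgeR, 24 higher (1.31%) and 7 lower (0.383%) with cocaine. DESeq2 called 1 gene, Cck, and libraries of at least 5 cells without pooling gave 3 calls in edgeR. Of all genes tested, 70.2% had both cocaine units on 1 side of library 11. Cck was at 1512 and 2718 CPM in the cocaine units and at 312 CPM in the saline unit, and rose by 2.78 on the log2 scale (SE 0.30, edgeR adjusted p = 4.64e-16). Cox5a was at 881 and 702 CPM against 104 CPM and rose by 2.89 (SE 0.43, edgeR adjusted p = 1.94e-08). Atxn7l3b (2.18), Camk1 (2.18), a calmodulin-dependent kinase, Ndufab1 (2.13), Stub1 (2.12), a ubiquitin ligase, and Ranbp1 (1.99) were also called higher. Clta, at 573 and 479 CPM against 196 CPM, was called higher too (edgeR adjusted p = 0.0238) and is named for its call with age. Nrgn had 14 and 39 UMIs against 2, Gtl3 16 and 19 against 3, and Tmem93 16 and 17 against 1. Nrgn is the only gene of the 8 excitatory markers that was tested, and it changed sign with libraries of at least 5 cells unpooled (−1.32). In library 10, 31 of the 39 Nrgn UMIs were in 1 cell, the same that held 117 of the 244 Cck UMIs. It held 19632 UMIs without mitochondrial and ribosomal protein genes, against a median of 6586.5 in P60 Inhib_5 cells. Without that cell, a setting added after the data were seen, library 10 had 114 CPM of Nrgn, edgeR called 18 genes, and Nrgn was not among them (2.68, edgeR adjusted p = 0.386), nor were Tmem93, Gtl3, Camk1, Stub1, Penk and Pnoc. Cck, with 117 of its 244 UMIs in 1 cell of library 10, was still called (2.38, edgeR adjusted p = 6.78e-10). The 8 markers summed to 308 and 646 CPM in the cocaine units and 242 CPM in library 11, and Slc17a7, the vesicular glutamate transporter of excitatory neurons, had 3 and 9 UMIs against 9. Their part in the result was not tested. Both this comparison and that of age use library 11 as a saline unit, and Cox5a, Cck, Ndufab1, Atxn7l3b and Clta were called in both, so the 2 sets of calls are not independent.

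Of the 7 genes called lower, 4 encode precursors of neuropeptides and 1 a calcium-binding protein. Tac2, the precursor of neurokinin B, was at 132 and 11.1 CPM against 335 CPM (−2.37, edgeR adjusted p = 0.00289), Calb2 at 514 and 835 CPM against 2089 CPM (−1.60, edgeR adjusted p = 2.14e-08), and Npy at 191 and 535 CPM against 1131 CPM (−1.57, edgeR adjusted p = 2.79e-05). The UMIs of Npy and Tac2 in library 11 came mostly from 1 of its 14 cells, which held 74 of 98 Npy UMIs and all 29 of Tac2. Without that cell, a setting added after the data were seen, library 11 had 332 CPM of Npy, between the cocaine units, and no UMI of Tac2. Neither gene was then called, with edgeR adjusted p of 0.931 and 0.379, and the estimate of Npy was 0.19, and Pnoc, Gtl3, Camk1 and Stub1 were not called either, while Calb2 (−1.66) and Penk (−1.48) were. Penk was lower by −1.23 and Pnoc, the nociceptin precursor, by −1.20. With libraries of at least 5 cells unpooled, which adds units of 48 h, the estimates of Calb2 (0.0521) and Penk (0.32) changed sign, and neither was called. Serpini1 (−1.56), neuroserpin, and Rgs10 (−1.37), a regulator of G protein signalling, completed the 7. Of 6 neuropeptides tested, 4 fell and 1 rose, against 0.383% and 1.31% of all genes tested (median −1.21, against 0.01 over all), and Tac2 and Npy among the 4 rested on the 1 cell of library 11. The numbers of Calb2 and Cck cells in these libraries, given above, moved in the same directions, and their part in the result was not tested.

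The saline library left out did not share all of these levels. In the 4 cells of library 12, Cox5a was at 512 CPM, Cck at 745 CPM and Atxn7l3b at 605 CPM, higher than in library 11, and Calb2 and Penk at 0 UMIs. With the 4 libraries of 15 d each as its own unit, a setting added after the data were seen, 34 genes were called, Cck and Cox5a among them (2.31 and 1.97 on the log2 scale), and Npy fell by 1.43. Calb2 (−0.98, edgeR adjusted p = 0.956), Penk (−0.72, edgeR adjusted p = 0.956) and Tac2 (−2.0, edgeR adjusted p = 0.0552) were then not called. With 1 unit per group over all 3 time points, also added afterwards, 1 gene was called. Cck and Cox5a were high in libraries 9 and 10 in excitatory neurons too, as given above for age. Reln was at 573 and 323 CPM against 531 CPM (−0.29, edgeR adjusted p = 0.895), and no other gene of the reelin pathway among the 4 tested was called.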

How the data were processed

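Single cells were sequenced on the 10x platform in 12 P60 and 3 P21 libraries. Alignment to mm9 (NCBIM37) and counting of UMIs were done by the authors with Cell Ranger, and the deposited values are raw UMI counts for 26145 genes. Cell classes, clusters and the fraction of mitochondrial UMIs per cell were taken from the authors' deposited table, made with Seurat 2.1.0. By the methods, the authors had removed shallow cells and double droplets, with a lower cutoff of genes per cell for P21 cells than for P60 neurons. CPM were computed here over 26048 genes, without 13 mitochondrial genes and 84 genes of ribosomal proteins. UMIs were summed per library, or over libraries of a group with fewer than 10 Inhib_5 cells. Sums were tested with edgeR 4.0.16 in R 4.3.3 (filterByExpr, TMM, quasi-likelihood, Benjamini-Hochberg adjusted p under 0.05, change above 1.5-fold), after tests on simulated data, and with DESeq2 1.42.0 as an alternative. The quasi-likelihood fit draws the spread of each gene towards a trend over all genes, so an SE or p does not rest on that gene alone. In the simulated data a log2 change of 1 was called in 21.0% of changed genes for age, 19.0% for cocaine and 0.5% for the interaction. At a log2 change of 2 the shares were 84.0%, 76.0% and 24.5%, with 14, 7 and 2 unchanged genes called. Each simulated gene was given the spread of the trend, so these shares do not cover genes that stray from it. Shares and UMIs per cell were compared by exact permutation tests (SciPy 1.17.1). Named genes were those of fixed marker and pathway lists, the 20 with the highest ratio to the next cluster (at least 30 UMIs in at least 4 libraries), and up to 10 called genes per direction. The members and lists were chosen with earlier results of these data known. Positions are from the Ensembl annotation of NCBIM37. Genes overlapping on 1 strand, Reln among them, may share reads.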

Additional observations from a re-analysis of the deposited data

Results flagged for a closer look

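In 5 genes the age difference of Inhib_5 differed from that of the other inhibitory neurons by a test of the interaction. The differences, on the log2 scale, were −2.76 for Cplx3, −2.37 for Kit, −1.69 for Cryab, −1.42 for Nfix and 2.80 for Inpp5f. The clusters that make up the other inhibitory neurons changed their shares between the same units, and their part in these values was not tested. A search for single libraries standing apart was made in 4 groups of values and found 0. These were the share of inhibitory neurons and the median UMIs per cell, in saline and in cocaine P60 libraries. The search used the gap to the nearest library relative to the range. Levels of single genes were not searched.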

How the results depend on the processing

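With few cells per library, counts of called genes moved with the setting. For age, 6 genes were called, 3 with DESeq2, 14 without a filter on low counts, 15 with libraries of at least 5 cells unpooled, 0 with all P60 libraries, 3 when P21 library 1 lost its cell with most Cck, and 9 to 50 with 1 library left out, which also changes the units and the genes tested; P21 library 2 or 3 left out gave 50, P21 library 1 gave 11 and library 11 gave 13. For cocaine, 31 were called, 1 with DESeq2, 3 with libraries of at least 5 cells unpooled, 1 with 1 unit per group, 18 when library 10 lost its cell with most Nrgn, and 28 when library 11 lost its cell with most Npy; leaving out library 5 or 7 kept the contrast of libraries 9 and 10 with 11 and is no check of it; with at least 5 cells Nrgn (−1.32), Calb2 (0.0521) and Penk (0.32) changed sign, and without the cell of library 11 so did Npy (0.19) and Tac2 (5.35, fitted against 0 UMIs). These settings on single cells were chosen after the data were seen. For the interaction, 5 were called, 1 with DESeq2, 18 with all P60 libraries, 0 against Inhib_4, Inhib_9, Inhib_10 and Inhib_11, 2 without Inhib_7, and 2 (library 11 out) to 9 (P21 library 1 out). The causes were not tested. Over the genes named, settings that gave an identical fit were counted once. Of the age values, 54 kept their side of the threshold and 16 did not. For cocaine 100 did and 54 did not, besides the 5 that changed sign, and for the interaction 28 and 22. The 100 include 16 from leaving out library 5 or 7, which is no check. Genes that a setting did not test were not counted. Of 17 cocaine genes, 11 were counted with at least 5 cells and 12 with 1 unit per group. With cells thinned to 2000 UMIs, 4 of 6 age genes were counted. The share difference stayed between −2.16 and −0.0319 points and the UMI difference between 2228 and 4225 with 1 library left out, and no alternative passed. The Reln level was 790 CPM in P21 cells, and the share of cells with Reln 56.1% when thinned. Without the 2 cells classed excitatory, 6, 35 and 5 genes were called. Unpooled P21 and saline libraries of at least 10 cells (1 against 1), and cocaine without library 9, 10 or 11, could not be fitted. No paired analysis was possible because replicate numbers were given in accession order only.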
